A study of Mus musculus with 12 samples.

Results

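Genes tied to ductal and progenitor identity were followed in mouse pancreas with and without chronic pancreatitis: the transcription factors Sox9, Onecut1, Onecut2, Klf5 and Pdx1, and the surface proteins Epcam, Prom1, Cdh1 and Cd44. They were chosen by name, 9 of the 18194 genes with a probe set of their own, and each was read from the probe set with the highest mean over the 12 arrays. The animals were 8-week-old mice of 2 closely related substrains, C57BL6/NHsd from Harlan and C57BL6/J from Jackson, termed NHsd and J here. Each substrain gave 3 mice with cerulein-induced chronic pancreatitis and 3 saline-injected controls, with 1 Affymetrix array of whole pancreas per mouse. The controls are labelled female, and no sex is given for the treated mice; the dose and course of cerulein are not given in the sources used here. No transgene or engineered allele is named for any group.

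Cerulein is a peptide that over-stimulates the acinar cells, which make the digestive enzymes, and repeated injection is a standard way to induce pancreatitis in mice. In injured pancreas, acinar cells can lose their enzymes and take on features of duct cells, a change called acinar-to-ductal metaplasia, during which genes of ducts and of the embryonic pancreas can be switched on. Sox9 and the Onecut factors act in duct and progenitor cells, Pdx1 marks pancreatic progenitors and then beta cells, and Epcam, Prom1 and Cdh1 lie on epithelial surfaces. Metaplasia itself was not measured on these arrays.

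Of the 9 genes, 6 were measured above log2 4 on all 12 arrays (Sox9, Klf5, Epcam, Prom1, Cdh1 and Cd44). The other 3, Onecut1, Onecut2 and Pdx1, passed that level on at most 1 array and were not tested. Cd44, Epcam, Prom1 and Cdh1 rose after cerulein as the mean of both substrains. Cd44 and Epcam rose the most and rose in each substrain; Prom1 rose less, and Cdh1 rose only slightly. Sox9 and Klf5 did not pass the test. Among all 8493 tested genes 59.4% were called higher and 10% lower in the same comparison (limma, Benjamini-Hochberg adjusted p below 0.05), so 4 of 6 is a share near the background. With the arrays set to equal medians 2 of the 6, Cd44 and Epcam, rose. Without J cerulein replicate 1, whose array stood apart from its group, all 6 rose. In that fit 5181 of all 8493 tested genes were called higher.

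Values are log2 signals, so a difference of 1 is a doubling. Arrays from cerulein-treated mice had more probe sets above log2 4 (29.5 to 31.3%) than saline arrays (26.3 to 27.0%), and the median tested gene rose by 0.49. The added control RNAs, which should not depend on the tissue, ran the other way: the 9 hybridization controls averaged 8.81 to 10.01 on the saline arrays and 7.36 to 7.74 on the cerulein arrays, and the 12 poly-A controls 9.81 to 11.0 and 7.13 to 8.67. Setting the arrays to equal medians moved the median change of all tested genes to -0.10, with 26.6% called higher and 36.1% lower. Changes are therefore also given on that scale, and how far the arrays' scale enters a gene's change was not tested. Within their own groups 11 arrays correlated at a mean of 0.969 to 0.985, and J cerulein replicate 1 at 0.951, so several results that rest on it are given without it too. The poly-A mean of 8.67 also came from that array, while the other cerulein arrays read 7.13 to 7.36. The tissue label matched its markers, since all 9 acinar enzyme genes measured were above log2 4, with Cela1, an elastase, at 15.13 and 15.18 in the NHsd and J saline groups.

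**Figure D1:**
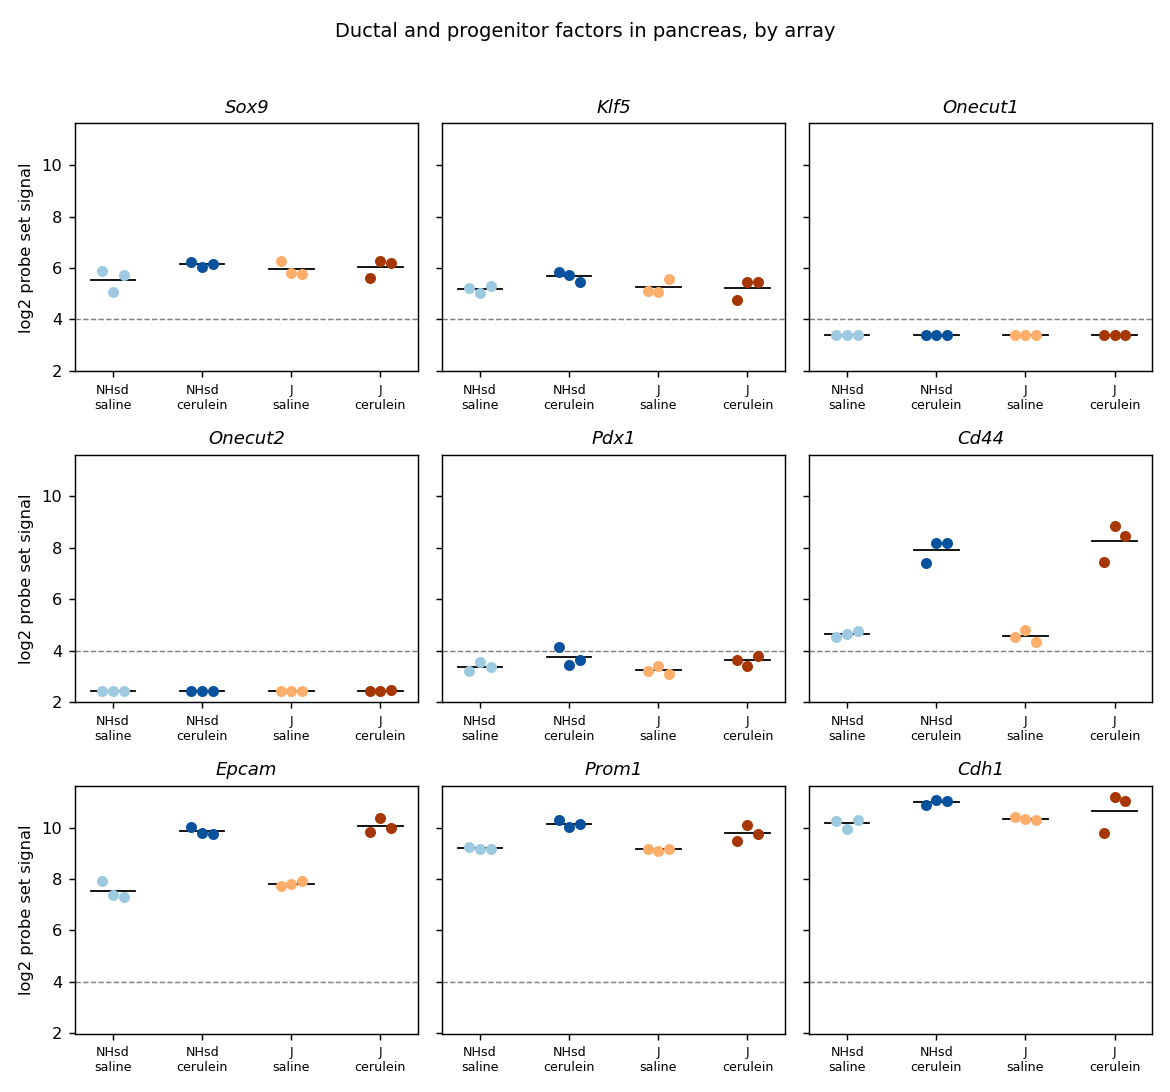
Log2 signal (vertical axis) of each of the 9 genes on the 12 arrays, by group; each point is 1 mouse, the line is the group mean, and the dashed line marks log2 4. Cd44, Epcam and Prom1 lie higher on every cerulein array than on every saline array, the Cdh1 point of J cerulein replicate 1 lies below all saline arrays, and Onecut1 and Onecut2 stay at the low end of the scale.

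Cd44, a cell-surface receptor for the matrix sugar hyaluronan that is carried by activated epithelium, leukocytes and fibroblasts, rose more than any other of the 6 genes. Its probe set read 4.55, 4.67 and 4.77 on the NHsd saline arrays and 7.40, 8.17 and 8.18 on the NHsd cerulein arrays. In J it read 4.51, 4.81 and 4.35 after saline and 7.44, 8.87 and 8.47 after cerulein. The group means were 4.66 ± 0.11 and 7.92 ± 0.45 in NHsd and 4.56 ± 0.23 and 8.26 ± 0.74 in J (SD, n = 3 each). The 6 saline values reached at most 4.81 and the 6 cerulein values were at least 7.40, so the treatments did not overlap. Among all tested genes, 40% were higher on every cerulein array than on every saline array; Cd44, Epcam and Prom1 did so among the 6.

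The log2 change of Cd44 was 3.48 (SE 0.22, 95% interval 2.99 to 3.97), an 11.2-fold rise with a limma adjusted p of 9.58e-08, and lay above that of 99.6% of tested genes. It was 3.26 (SE 0.32, 9.56-fold) in NHsd and 3.70 (SE 0.32, 13.0-fold) in J. With equal medians it was 2.90 (adjusted p 1.97e-07). A second Cd44 probe set was above log2 4 only on the 6 cerulein arrays. There its rise was at least 7.52-fold in NHsd and at least 7.59-fold in J, counted against log2 4. The other 2 of the 4 Cd44 probe sets stayed under log2 4 on every array.

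Genes that mark other cells carrying Cd44 rose in the same arrays. Their counts are read against the 59.4% of all tested genes called higher. Adgre1, Cd14 and Cd68 among the leukocyte markers, and Col1a1 and Postn among the fibroblast markers, had saline group means under log2 4. These genes passed the filter mainly through the cerulein arrays. Of 8 leukocyte markers tested, 7 rose and 0 fell, among them Tyrobp, a signalling adaptor of myeloid cells (log2 change 3.97, SE 0.30), and Lyz2, lysozyme of macrophages and neutrophils (3.72, SE 0.20). The log2 of their summed level was 8.48 to 9.51 on saline arrays and 11.7 to 12.3 on cerulein arrays, while the T cell genes Cd3e, Cd3g and Cd8a, the B cell gene Cd79a, and Itgam and Itgax were under log2 4 on all 12. All 9 tested fibroblast and stellate cell markers rose, among them Postn, a matrix protein of activated fibroblasts, which reached at least 22.9-fold in NHsd mice and 24.96-fold in J mice. Their summed level was 11.0 to 11.6 after saline and 12.9 to 14.4 after cerulein on the log2 scale. The part of these cells in the rise of Cd44 was not tested. In whole tissue, more or fewer cells of a type and more or less RNA per cell cannot be told apart.

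The partners of CD44 are few, and their count is read against the 59.4% of all tested genes called higher. Of 7 tested genes for its ligands, cytoskeletal linkers and splicing factors, 5 rose and 0 fell. Their median change was 0.92 against 0.49 for all tested genes, or 0.67 with group means under log2 4 set to 4. With equal medians 3 rose and 2 fell, where 26.6% of all tested genes were called higher and 36.1% lower. Msn, moesin, which ties CD44 to actin, rose by 1.89 (SE 0.25), and Srgn, serglycin, a proteoglycan of blood cells that can bind CD44, rose by 1.52 (SE 0.18). The hyaluronan synthases Has1, Has2 and Has3 and the hyaluronidase Hyal2 were under log2 4 on all 12 arrays.

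Epcam, an epithelial adhesion molecule of duct and progenitor cells, was the second to rise several-fold. The probe set used read 7.91, 7.39 and 7.29 in NHsd saline, and 10.03, 9.81 and 9.73 in NHsd cerulein. In J it read 7.73, 7.80 and 7.93, and 9.82, 10.37 and 9.97. The J means were 7.82 ± 0.10 and 10.06 ± 0.28, the NHsd means 7.53 ± 0.33 and 9.86 ± 0.16 (SD, n = 3 each), and no cerulein value came within 1 log2 unit of a saline value. The change was 2.28 (SE 0.13, interval 2.00 to 2.57), a 4.87-fold rise (adjusted p 4.33e-08), above 97.2% of tested genes, with 2.33 in NHsd, 2.24 in J, and 1.70 over both with equal medians (adjusted p 9.30e-08).

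The 2 Epcam probe sets disagreed. The other one, whose name carries the suffix that Affymetrix gives to sets that may bind other transcripts, read 6.32, 6.49 and 6.50 against 6.28, 6.34 and 6.04 in NHsd. In J it read 6.18, 6.37 and 6.71 after saline against 5.86, 5.96 and 6.33 after cerulein. Its saline and cerulein values overlapped in both substrains, and its change was -0.29 (SE 0.12, adjusted p 0.0517 with all probe sets in the fit). Taking the mean of the 2 sets gave Epcam a change of 0.995. The same rule gave Cd44 1.76 over its 4 sets, 2 of which lay under log2 4 on every array. Both genes were still called.

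**Figure D2:**
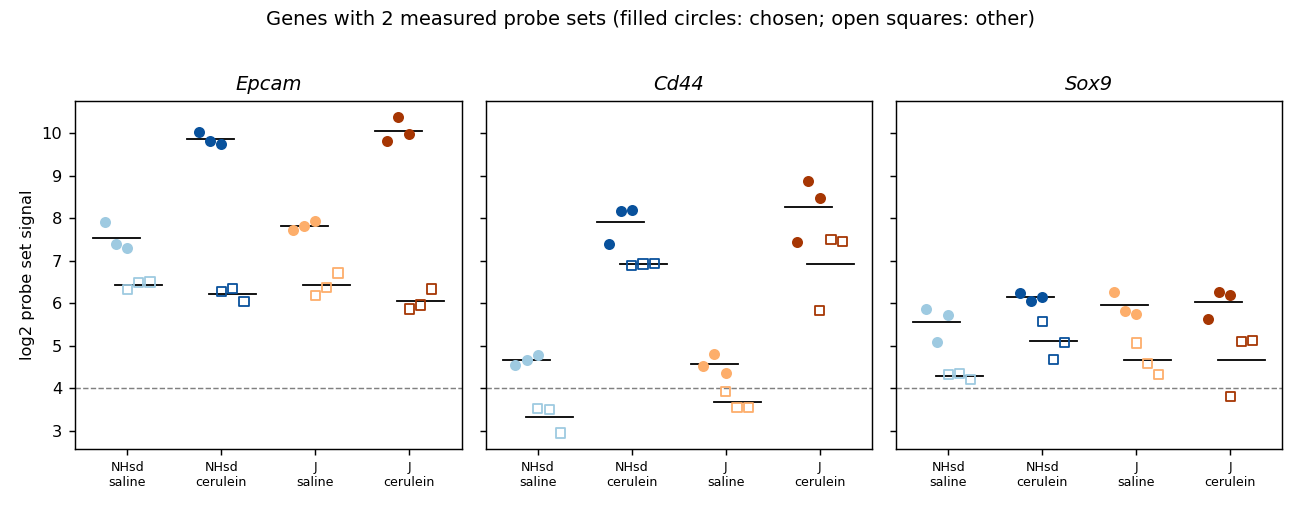
Log2 signal (vertical axis) by group for the 3 genes with 2 measured probe sets, Epcam, Cd44 and Sox9; filled circles are the probe set used, open squares the other, 1 point per mouse, with group means as lines and log2 4 dashed. The open Epcam squares stay between 5.86 and 6.71 in all 4 groups, while both Cd44 sets are high in each cerulein group.

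Prom1, the pentaspan membrane protein also called CD133, which sits on the apical surface of duct cells, rose less. It read 9.25, 9.16 and 9.18 on NHsd saline arrays and 10.29, 10.01 and 10.16 on NHsd cerulein arrays. In J the values were 9.19, 9.10 and 9.17, then 9.49, 10.11 and 9.77. Saline mice differed little from each other (SD 0.046 in NHsd and 0.045 in J), and every cerulein array lay above them. The change was 0.80 (SE 0.11, interval 0.56 to 1.03, 1.74-fold, adjusted p 3.53e-05), higher than in 66.7% of tested genes. With equal medians it was 0.22 (adjusted p 0.0669) and no longer past the threshold.

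Cdh1, E-cadherin, which joins epithelial cells at adherens junctions, was already well expressed in both saline groups. Its values were 10.26, 9.94 and 10.29 in NHsd saline and 10.87, 11.07 and 11.02 in NHsd cerulein. In J they were 10.42, 10.32 and 10.30 after saline and 9.78, 11.19 and 11.03 after cerulein. J cerulein replicate 1 thus lay under all 6 saline arrays while the other 5 cerulein arrays lay above them. The change was 0.57 (SE 0.20, interval 0.139 to 1.003, 1.49-fold, adjusted p 0.0217), a rise that stood above only 55.0% of tested genes and turned to -0.0096 with equal medians (adjusted p 0.968).

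The call for Cdh1 depended on single arrays. Without J cerulein replicate 1 the change was 0.79 (adjusted p 8.92e-06). It was not called without J cerulein replicate 2 (0.44, adjusted p 0.0550), without J cerulein replicate 3 (0.48, 0.0556) or without NHsd saline replicate 2 (0.52, 0.0515). Over all 21 alternatives its adjusted p ran from 8.92e-06 to 0.968.

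Genes for partners of E-cadherin at adherens junctions changed in shares near those of all tested genes (59.4% higher, 10% lower). Of 10 tested adherens junction partners 6 rose and 2 fell, with a median change of 0.65, or 0.52 with group means under log2 4 set to 4; with equal medians 2 rose and 4 fell, where 26.6% and 36.1% of all tested genes did. Ctnnb1, beta-catenin, which links E-cadherin to actin through alpha-catenin, rose by 0.86 (SE 0.13), and Vcl, vinculin, rose by 1.36 (SE 0.22). Genes that repress E-cadherin or mark mesenchymal cells rose in 6 of 6 tested cases, with a median of 1.74 (1.37 with low group means at 4), and in 5 of 6 with equal medians. Of these, Snai2, Zeb1 and Zeb2 had saline group means under log2 4 (3.02 to 3.95) and cerulein means above it. They passed the filter mainly through the cerulein arrays, so their rise was close to fixed by being tested. Among the 6 were Fn1, fibronectin (2.40, SE 0.33), Vim, vimentin (1.90, SE 0.16), and the repressor Zeb2, whose rise was at least 2.04-fold in NHsd mice and 2.66-fold in J mice. Fibroblasts express these genes too, and the fibroblast markers described with Cd44 rose in the same mice; their part was not tested. The repressors Snai1, Twist1 and Twist2 were under log2 4 on all 12 arrays.

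The promoters of the 3 genes whose treatments did not overlap are shown because these genes were higher on every cerulein array, and because their DNA can be set beside each other for the motifs of the factors discussed next. Each is the 250 bases before the RefSeq start site in GRCm38.p6, 5′ to 3′ on the gene's strand, at chr17:87635729-87635978 (+) for Epcam, chr5:44101737-44101986 (-) for the upstream of 2 Prom1 starts, and chr2:102901666-102901915 (-) for Cd44. Capitals mark a motif match.
Epcam: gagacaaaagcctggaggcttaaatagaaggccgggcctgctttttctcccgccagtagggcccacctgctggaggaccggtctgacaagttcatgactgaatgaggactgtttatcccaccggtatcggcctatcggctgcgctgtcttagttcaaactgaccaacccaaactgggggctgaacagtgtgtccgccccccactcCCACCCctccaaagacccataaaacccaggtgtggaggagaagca
Prom1: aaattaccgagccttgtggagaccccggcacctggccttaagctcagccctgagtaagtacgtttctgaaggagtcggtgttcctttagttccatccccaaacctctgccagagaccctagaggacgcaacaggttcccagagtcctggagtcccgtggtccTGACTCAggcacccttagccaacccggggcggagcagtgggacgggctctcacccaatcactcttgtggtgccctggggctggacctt
Cd44: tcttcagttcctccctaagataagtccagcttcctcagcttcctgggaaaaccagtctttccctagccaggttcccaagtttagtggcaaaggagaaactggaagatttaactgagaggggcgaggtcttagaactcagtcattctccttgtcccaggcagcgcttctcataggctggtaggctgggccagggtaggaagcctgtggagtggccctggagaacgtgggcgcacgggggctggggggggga

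In all, 5 letter patterns were searched on both strands: ATCAAT for ONECUT factors, CCACCC for KLF, AACAAT for SOX, TGANTCA for AP-1 and TAATNA for homeodomain factors such as Pdx1. The Epcam promoter held 1 KLF match, at position -45 from the start, a pattern in 28.1% of all 32851 promoters of this length. The upstream Prom1 promoter held 1 AP-1 match, at position -88, a pattern found in 6.75% of promoters. The 250 bases before the other Prom1 start, at chr5:44094769-44095018 (-), held 1 AP-1 match at position -189, 1 KLF match at -61 and 1 homeodomain match at -28, the last a pattern in 24.3% of promoters. The Cd44 window held 0 matches of any of the 5 patterns. The ONECUT pattern (6.72% of all promoters) and the SOX pattern (9.42%) appeared in none of these 4 windows. The GC content was 56.4% for Epcam and Cd44 and 59.2% for the upstream Prom1 window, against a median of 52.4% for all promoters. A match is a run of letters and not a measured binding site.

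Sox9, the transcription factor that maintains duct cells and is needed for acinar cells to become duct-like, ranged from 5.07 to 6.27 across the arrays. It read 5.87, 5.07 and 5.71 in NHsd saline and 6.25, 6.05 and 6.15 in NHsd cerulein. In J it read 6.27, 5.82 and 5.75 after saline and 5.63, 6.25 and 6.18 after cerulein. The NHsd groups did not overlap, and the J groups overlapped fully, with the highest J value in a saline mouse and the lowest in a cerulein mouse. Over both substrains the change was 0.33 (SE 0.17, interval -0.02 to 0.69, adjusted p 0.0884), greater than in 40.6% of tested genes, and -0.25 with equal medians. The change became a called rise without J cerulein replicate 1 (0.43, adjusted p 0.0248), without NHsd saline replicate 1 (0.41, 0.0477) and without J saline replicate 1 (0.41, 0.0470).

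A second Sox9 probe set gave changes of 0.82 in NHsd (SE 0.34, adjusted p 0.0578) and 0.02 in J (SE 0.34). The third Sox9 set stayed under log2 4 on every array. Both detected sets thus gave a larger value in NHsd than in J, though neither difference between substrains was called. On J cerulein replicate 1 the second set read 3.80, against 5.09 and 5.12 on the other J cerulein arrays. Without that array the change of the set used was 0.27 in J, against 0.07 with it.

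Klf5, a zinc-finger factor of proliferating and duct-like epithelium, read 5.24, 5.03 and 5.30 in NHsd saline and 5.85, 5.71 and 5.46 in NHsd cerulein. In J it read 5.12, 5.07 and 5.56, then 4.74, 5.44 and 5.44. The NHsd groups did not overlap, and the J groups did, again with J cerulein replicate 1 lowest of all. The change was 0.22 (SE 0.15, interval -0.11 to 0.55, adjusted p 0.207) over both substrains and -0.36 with equal medians (adjusted p 0.0601). Without J cerulein replicate 1 it was 0.34 and was called (adjusted p 0.0257).

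Onecut1, also called hepatocyte nuclear factor 6, and its relative Onecut2 act upstream of duct genes in the embryonic pancreas. Both gave no usable signal. Onecut1 read 3.38 on 11 arrays and 3.40 on J saline replicate 1. Onecut2 read 2.42 on 11 arrays and 2.47 on J cerulein replicate 3. These values sit at the low end of the scale, whose floor is 2.39, and say that a change was not detectable with these probe sets, not that the genes are silent. None of their 5 probe sets passed the filter.

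Pdx1, the homeodomain factor of pancreatic progenitors and adult beta cells, also read near the low end of the scale. It read 3.20, 3.54 and 3.38 in NHsd saline and 4.15, 3.45 and 3.64 in NHsd cerulein, and 3.22, 3.42 and 3.10 against 3.65, 3.42 and 3.79 in J. On this probe set NHsd cerulein replicate 1 was the only array above log2 4, and the treatments overlapped. The second Pdx1 set passed log2 4 only on a saline array, NHsd saline replicate 3 (4.30), and read 2.54 to 2.57 on the 6 cerulein arrays. Without the filter on low values the change of the first Pdx1 set, the one used here, was 0.37, with a limma adjusted p of 0.0542. Islet markers moved in the same direction as that first set. All 8 tested rose, among them Gcg, glucagon (1.01, SE 0.15), where 59.4% of all tested genes were called higher. The summed level of the islet markers was 14.0 to 14.3 after saline and 14.4 to 15.02 after cerulein on the log2 scale. With equal medians 2 of the 8 rose, near the 26.6% of all tested genes; Nkx6-1 and Neurod1 were under log2 4 on all 12 arrays. Their part in the Pdx1 values was not tested.

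**Figure D3:**
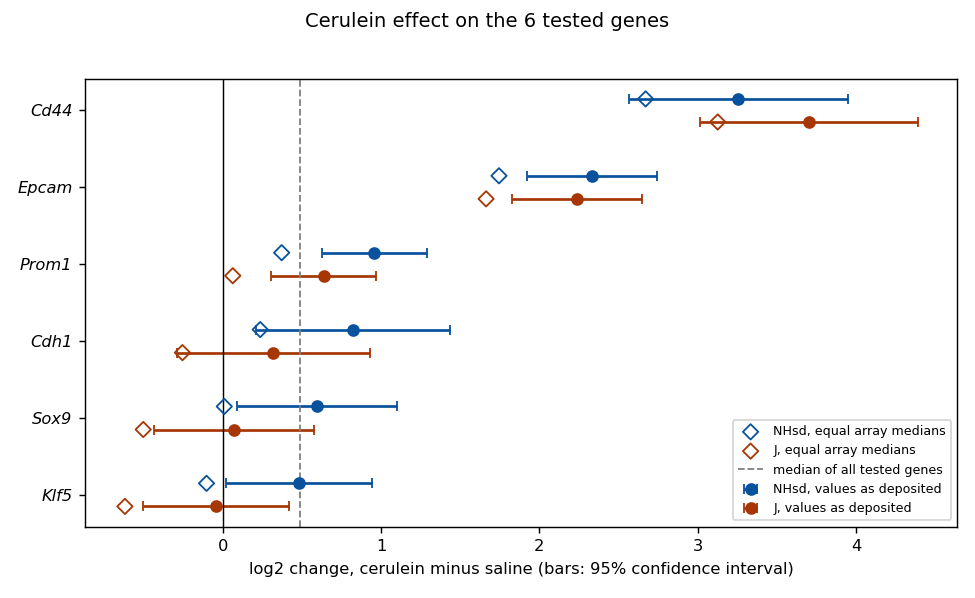
Log2 change after cerulein (horizontal axis) of the 6 tested genes in NHsd and J; filled circles with 95% confidence intervals, not adjusted for the number of genes, are the values as deposited, open diamonds those with equal array medians, and the dashed line is the median of all tested genes. The Cd44 and Epcam diamonds stay above 1 in both substrains, while the Sox9, Klf5 and Cdh1 intervals include 0 in J.

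Within NHsd alone, 5 of the 6 tested genes rose (Cd44, Epcam, Prom1, Cdh1 and Sox9), where 48.7% of all tested genes were called higher. All 6 were higher on each NHsd cerulein array than on each NHsd saline array, as were 57.3% of tested genes. Prom1 rose by 0.96 (SE 0.15, adjusted p 0.000262) and Cdh1 by 0.82 (SE 0.28, adjusted p 0.0255). Sox9 rose by 0.60 (SE 0.23, adjusted p 0.0458), while Klf5 gave 0.48 (SE 0.21, adjusted p 0.0697). With equal medians 3 of the 6 rose, against 20.3% of tested genes, and Sox9 and Cdh1 gave 0.01 and 0.24 while the Klf5 value turned to -0.10.

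The Sox9 call in NHsd was close to the threshold. It was lost in 8 of the 12 leave-one-out fits, with changes of 0.36 to 0.68 and adjusted p from 0.0526 to 0.204. The arrays concerned were the 3 NHsd cerulein arrays, J cerulein replicate 3, and replicates 2 and 3 of both saline groups. The Cdh1 call was lost without NHsd cerulein replicate 2 (0.78, adjusted p 0.0634), NHsd cerulein replicate 3 (0.81, 0.0633) or NHsd saline replicate 2 (0.71, 0.0865). Klf5 became called without J cerulein replicate 1 (adjusted p 0.0216), when 6 of 6 rose and 4561 of all 8493 tested genes were called higher. The count was 3 of 6 without NHsd cerulein replicate 2, NHsd cerulein replicate 3 or NHsd saline replicate 2. In these fits 4054, 3389 and 3571 of all 8493 tested genes were called higher.

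Within J, 3 of the 6 rose (Cd44, Epcam and Prom1), where 47.8% of all tested genes were called higher, and the same 3 lay higher on each cerulein array than on each saline array, as did 52.2% of tested genes. Prom1 rose by 0.64 (SE 0.15, adjusted p 0.0038), and by 0.06 with equal medians (adjusted p 0.728). Cdh1 gave 0.32 (SE 0.28, interval -0.29 to 0.93, adjusted p 0.348), Sox9 gave 0.07 (interval -0.43 to 0.58, adjusted p 0.811) and Klf5 gave -0.04 (interval -0.50 to 0.42, adjusted p 0.875). With equal medians the Klf5 value in J was -0.62 and was called lower (adjusted p 0.0334), where 29.2% of tested genes were. Without J cerulein replicate 1, Cdh1 gave 0.76 and was called (adjusted p 0.000440), the Klf5 value changed sign to 0.19, and 4 of 6 rose. In that fit 4175 of all 8493 tested genes were called higher.

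The cerulein changes of the 2 substrains were then compared directly. None of the 6 genes differed in its change by limma's interaction test (adjusted p from 0.722 to 0.929), 0 had an unadjusted p below 0.05, and 0.0118% of all tested genes were called. As J minus NHsd, the difference was -0.52 for Sox9 (interval -1.24 to 0.19), -0.53 for Klf5 (-1.18 to 0.12) and -0.50 for Cdh1 (-1.37 to 0.36). It was -0.32 for Prom1 (-0.79 to 0.15), -0.09 for Epcam (-0.67 to 0.49) and 0.44 for Cd44 (-0.53 to 1.42). Without J cerulein replicate 1 the difference was -0.058 for Cdh1, -0.29 for Klf5, -0.17 for Prom1 and 0.86 for Cd44. The Sox9 difference ran from -0.68 to -0.28 over the 12 fits that left out 1 array. The intervals for Sox9, Klf5, Cdh1 and Cd44 allow differences of more than 1 log2 unit, so likeness of the substrains is not shown.

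In saline-treated mice none of the 6 genes differed between J and NHsd, and 0 had an unadjusted p below 0.05 (limma; smallest adjusted p 0.828), with 0.0589% of all tested genes called. Cdh1 was higher on each J saline array than on each NHsd saline array, which held for 8.42% of tested genes, at a difference of 0.18 (interval -0.43 to 0.79). After cerulein 0 of 6 passed the adjusted threshold (smallest adjusted p 0.476), against 0.224% of tested genes, while 2 had an unadjusted p below 0.05. These were Klf5, at -0.47 in J relative to NHsd (limma adjusted p 0.518), and Prom1, at -0.36 (limma adjusted p 0.476). Without J cerulein replicate 1 the differences were smaller, -0.23 for Klf5 and -0.21 for Prom1. Klf5 was lower on each J cerulein array than on each NHsd cerulein array, as in 4.39% of tested genes.

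J cerulein replicate 1 was the lowest of the 3 J cerulein arrays for all 6 tested genes, and the lowest of all 6 cerulein arrays for Sox9, Klf5, Prom1 and Cdh1. Deviations from the group means therefore ran together in part through this mouse. Over the 12 arrays the deviations of Cdh1 correlated with those of Cd44 at r = 0.84, and at 0.67 without that array; for Klf5 and Cdh1 the values were 0.72 and 0.45. Epcam and Cd44, whose values correlated at 0.96, had deviations correlating at 0.16. These correlations are descriptions over 12 arrays that share their treatment groups.

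The genes differed from each other in how far they moved. Each of the 15 pairs was compared by its within-array difference, 6 cerulein against 6 saline arrays, with a two-sided exact permutation test over 924 assignments, for which 0.00216 is the smallest possible p. Cd44 moved more than Epcam by 1.19 on the log2 scale (exact permutation p 0.00433, 0.00649 adjusted over the 15 pairs). Epcam moved more than Prom1 by 1.49 (exact p 0.00216, adjusted 0.00361) and more than Cdh1 by 1.71 (the same p). The changes of Prom1 and Cdh1 were 0.23 apart (exact p 0.212, adjusted 0.227), and those of Sox9 and Klf5 were 0.11 apart (exact p 0.548, adjusted 0.548). In all, 12 of the 15 pairs had an adjusted p below 0.05. On the probe sets used, the order of the changes was Cd44, Epcam, then Prom1 with Cdh1 and Sox9 with Klf5, where neighbours from Prom1 to Cdh1, Cdh1 to Sox9 (0.24 apart, exact p 0.156, adjusted 0.180) and Sox9 to Klf5 were not separated. Epcam's place rested on 1 of its 2 probe sets. With the mean of both sets, an alternative added after seeing the data, it moved 0.20 more than Prom1 (exact permutation p 0.145, also 0.145 adjusted over the 5 pairs with Epcam), 0.42 more than Cdh1 (exact p 0.0281, adjusted 0.0352) and 2.48 less than Cd44 (-2.48, exact p 0.00216, adjusted 0.00541). A shift common to a whole array cancels in these differences.

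Other genes of duct epithelium are the nearest context for Epcam and Prom1. Of 16 tested duct genes 13 rose and 3 fell, with a median change of 1.07 (0.98 with group means under log2 4 at 4) against 0.49 for all tested genes, and with equal medians 10 rose and 3 fell; among all tested genes 59.4% rose, and 26.6% with equal medians. Of the 13, Aqp5, Car2, Cldn4, Krt20 and Mmp7 had saline group means under log2 4 (2.48 to 3.83). They passed the filter mainly through the cerulein arrays, so their rise was close to fixed by being tested. Cldn18, Slc4a4 and Cftr were on the array but did not pass it. Claudin 4 (Cldn4) rose at least 2.92-fold in NHsd mice and 3.85-fold in J mice, and the protease Mmp7, matrilysin, at least 3.43-fold and 14.3-fold. The keratins Krt7 (1.88, SE 0.17), Krt19 (1.17, SE 0.13), Krt8 (1.08, SE 0.12) and Krt18 (1.07, SE 0.11), which fill the cytoskeleton of simple epithelium, also rose. The 3 that fell were the mucin Muc1 (-1.11, SE 0.12) and the trefoil factors Tff2 (-1.41, SE 0.10) and Tff1, secreted peptides that protect mucosa. Tff1 was under log2 4 on all 6 cerulein arrays, and its fall, counted against log2 4, was at least 1.53-fold in NHsd and 1.43-fold in J. The summed level of the list fell, from 14.0 on the log2 scale on every saline array to 13.2 to 13.7 on cerulein arrays; Tff2 alone read 13.71 and 13.72 in the NHsd and J saline groups. Cftr, the chloride channel that defines duct cells, was under log2 4 on all 12 arrays.

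Transcription factors of the embryonic foregut and pancreas, the relatives of Sox9, Pdx1 and the Onecut genes, were measured less often. Only 12 of the 22 on the array were tested, and 10 (Foxa1, Prox1, Mnx1, Sox11, Hes1, Onecut3, Nkx6-1, Nkx2-2, Neurog3 and Elf3) stayed under log2 4 on all 12 arrays. Of the 12, 7 rose and 1 fell, with a median of 0.46 (0.26 with group means under log2 4 at 4) against 0.49 for all tested genes; with equal medians 4 rose and 4 fell. These shares are near those of all tested genes (59.4% higher; 26.6% higher and 36.1% lower with equal medians). Hhex, a homeobox factor of early pancreas and liver, rose by 2.51 (SE 0.15). Ehf, an ETS factor of epithelium, rose by 2.21 (SE 0.17), and Sox4, an SRY-related factor of progenitors, by 2.00 (SE 0.20).

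Acinar identity factors and enzymes are the other side of acinar-to-ductal metaplasia. Of 9 acinar transcription factors 5 rose and 1 fell, shares near the 59.4% and 10% of all tested genes. With equal medians 1 rose and 4 fell, where 26.6% of all tested genes were called higher and 36.1% lower. Rbpj, the DNA-binding partner of Notch, rose by 1.49 (SE 0.16) and its acinar relative Rbpjl by 0.90 (SE 0.18). Rbpjl rose by 1.36 in NHsd (SE 0.25, limma adjusted p 0.000736). In J it was not called (0.44, SE 0.25, limma adjusted p 0.152). All 9 tested acinar enzyme genes fell, with a median of -0.45, and all 9 fell with equal medians. Amy1, amylase, fell by 1.99 (SE 0.11) and Ctrc, chymotrypsin C, fell by 1.77 (SE 0.15). The log2 of the summed acinar level was 18.3 to 18.4 on saline arrays and 17.8 to 18.1 on cerulein arrays.

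**Figure D4:**
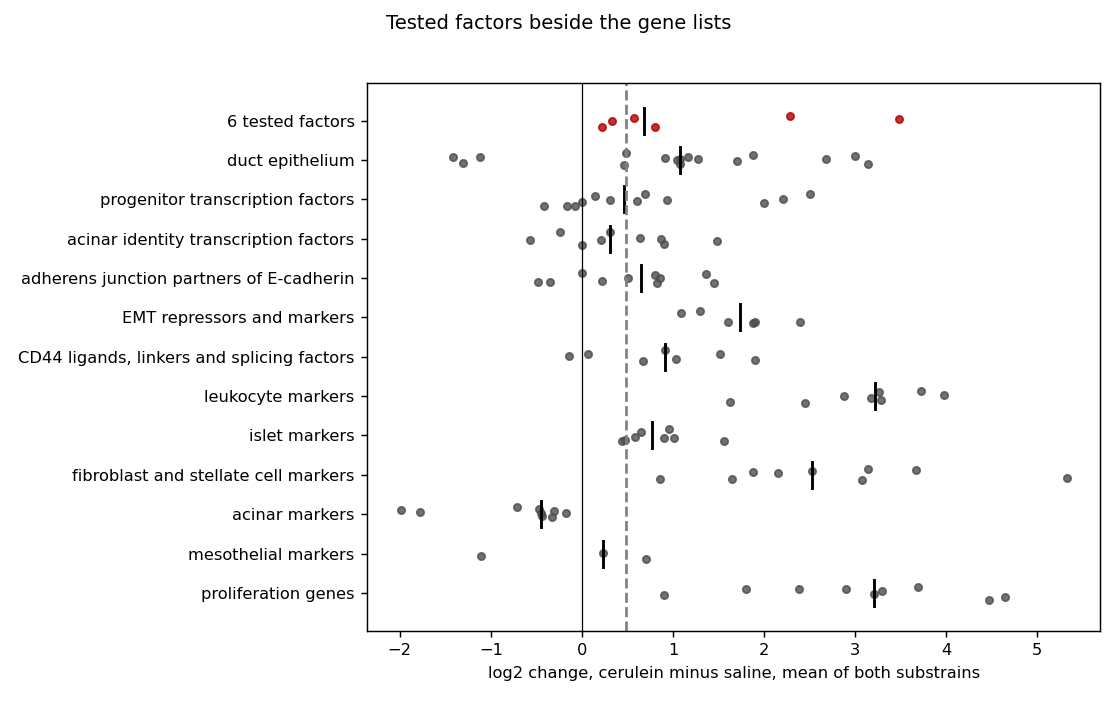
Log2 change after cerulein (horizontal axis, mean of both substrains) of each tested gene in 12 gene lists, with the 6 tested factors on top; each point is 1 gene, the short bar is the list's median and the dashed line is the median of all tested genes, 0.49. The 9 acinar markers lie below 0, and the 6 factors spread from 0.22 for Klf5 to 3.48 for Cd44.

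Genes whose pattern over the 12 arrays lay closest to each gene were listed by Pearson's r among 8492 others, as a description with no test. For Cd44 they were Lox, which crosslinks collagen (r = 0.992), and Lgi2 (0.991). For Epcam they were Calu, a calcium-binding protein of the endoplasmic reticulum (0.995), and Emp1, an epithelial membrane protein (0.993). For Prom1 they were Auts2 and Marveld2, the latter a tight junction protein (both 0.980), and for Cdh1 Slc1a5, a glutamine transporter (0.970), and Taf4 (0.968). Sox9 lay closest to Eif2ak3, the endoplasmic reticulum stress kinase PERK (0.959), and Ttyh2 (0.935), and Klf5 to Tanc1 and Esyt1 (both 0.919). Because the treatments form separate clusters for Cd44, Epcam and Prom1, their r is set mainly by that contrast. On deviations from group means the closest genes were different for 5 of the 6: Incenp for Cd44 (0.972), Ranbp9 for Epcam (0.918), Slc38a6 for Prom1 (0.968), Zcchc8 for Sox9 (0.974) and Tsc2 for Klf5 (0.967), while Cdh1 kept Slc1a5 (0.982).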

How the data were processed

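RNA of 12 mouse pancreases was labelled from 100 ng and hybridized to Affymetrix arrays, per the labels' protocols. The authors deposited log2 signals per probe set, and GCRMA and Partek are named, with no order or version, in the submitters' processing notes. These values were used as deposited. Of 45101 probe sets, 34958 carried 1 gene symbol; 932 with several and 9211 with none were left out. A gene was its probe set with the highest mean over 12 arrays, tested where it exceeded log2 4 on at least 3 arrays, which left 8493 of 18194 genes. A gene low after saline could pass this filter through its cerulein arrays alone. Counts of rises in the lists therefore lean toward genes high after cerulein. With 3 arrays per group, their number limits the precision: the median SE of a difference between 2 groups was 0.202.

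All 12 arrays entered a limma 3.58.1 fit (R 4.3.3) that gave each group its own mean, with an intensity trend, 8 residual degrees of freedom and Benjamini-Hochberg adjustment over all 8493 genes; 6 comparisons were made, and a gene was called at an adjusted p below 0.05. The script was tested on simulated data. A gene under log2 4 on all arrays of a saline group has its fold counted against log2 4 and written "at least". Alternatives were quantile normalization, equal medians, moderation that was robust or had no trend, averaging all probe sets per gene, a filter raised to log2 6 or dropped, a fit of the compared groups alone, a replicate block and leaving out each array; the fit on all probe sets and the pair tests with both Epcam sets averaged were added after seeing the data. The members and the lists were chosen with earlier results of these data known. The genes named were the 9 members, up to 3 called genes per list with the largest change and, per member, the closest genes by Pearson's r; Krt7, Krt8, Krt18, Krt19, Muc1, Tff1 and Tff2 were named after their values were seen. Promoters came from RefSeq, GRCm38.p6, which held 5 of the 9 members.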

Additional observations from a re-analysis of the deposited data

How the results depend on the processing

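Cd44 and Epcam rose past the threshold under all 21 alternatives in the mean of both substrains, at 1.76 to 3.68 and 0.995 to 2.38. The number of the 6 genes that changed was 2 with equal medians in the mean of both substrains, and in NHsd 3 with quantile normalization, 3 with equal medians and 3 without the filter; leaving out 1 array gave 3 to 6 in both of these comparisons, 3 to 4 in J, and 0 to 0 in the other 3 comparisons. Quantile normalization and equal medians turned the sign of the mean change of Sox9 (-0.24 and -0.25) and of Klf5 (-0.36 and -0.36), of Klf5 in NHsd (-0.11 and -0.10), and in J of Sox9 (-0.49 and -0.50) and Cdh1 (-0.12 and -0.26). They also turned the Klf5 difference between the saline groups (-0.0055 and -0.013), and equal medians turned the mean change of Cdh1 (-0.0096). Equal medians subtracts 1 amount from every gene's change by construction; for quantile normalization the cause was not tested. Averaging all probe sets of each gene turned the Cd44 difference between saline groups (0.063); the cause was not tested. Leaving out 1 array gave changes in J of -0.045 to 0.27 for Sox9 and -0.16 to 0.19 for Klf5. The same fits gave J minus NHsd differences of -0.28 to 0.028 for the cerulein change of Epcam, -0.094 to 0.15 for Klf5 in saline, and after cerulein -0.24 to 0.070 for Sox9 and -0.58 to 0.12 for Cdh1. None of these values that changed sign was called. Whether replicate numbers pair the mice was not settled by these values. Of 18 same-numbered pairs 6 correlated above 0.1 (-0.16 to 0.34), as did 8 of 36 differently numbered pairs (-0.37 to 0.25). In addition, 7 of 12 arrays correlated best with their own number. With a replicate block 4, 4 and 3 of the 6 genes changed in the mean of both, NHsd and J; Sox9 in NHsd was not called (adjusted p 0.0574). Signals near the floor limit Onecut1, Onecut2 and Pdx1, for which no change could be detected.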

Other observations

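Genes of DNA replication and mitosis rose in 9 of 9 tested cases after cerulein, with a median change of 3.20 (2.38 with group means under log2 4 set to 4), and 8 of 9 rose with equal medians. Among all tested genes 59.4% were called higher, and 26.6% with equal medians. Aurkb, Birc5, Ccna2, Cdk1, Mki67 and Top2a had saline group means under log2 4 and passed the filter mainly through the cerulein arrays. Birc5, survivin, which acts in chromosome segregation, rose at least 7.66-fold in NHsd mice and 11.3-fold in J mice. Top2a, the topoisomerase of dividing cells, rose at least 4.55-fold and 4.54-fold. Mcm6, a subunit of the replicative helicase, rose by 4.46 on the log2 scale (SE 0.17, limma). The log2 of the summed level of the 9 genes was 7.91 to 8.33 on saline arrays and 10.5 to 11.4 on cerulein arrays, with no overlap. Which cells carried these transcripts was not measured.

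Mesothelial genes, which mark the outer lining of the organ, were mixed. Of 3 tested, Upk1b, a uroplakin, fell by 1.10 (SE 0.18, limma), Wt1 rose in NHsd by at least 1.54-fold and was not called in J (0.60, adjusted p 0.0506), and the remaining gene was not called. Msln, mesothelin, was under log2 4 on all 12 arrays.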
